A study of Oryza sativa with 8 samples.

Results

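The 10 genes described here form the core of the circadian clock of rice, and their RNA was followed in roots at 28 °C and in the cold. They were chosen by locus ID: LHY (LOC_Os08g06110), PRR73 (LOC_Os03g17570), PRR37 (LOC_Os07g49460), PRR95 (LOC_Os09g36220), PRR59 (LOC_Os11g05930), GI (LOC_Os01g08700), TOC1, also called PRR1 (LOC_Os02g40510), LUX (LOC_Os01g74020), ELF3-1 (LOC_Os06g05060) and ELF3-2 (LOC_Os01g38530). All 10 were present among the 42189 gene IDs of the deposited tables, and all 10 passed the authors' filter on low means in every comparison. The files do not pair IDs with names, so the names are those of the gene list that defines the set. A RefSeq gene table listed 8 of the 10 names, PRR59 and ELF3-2 being the others, and each of the 8 lay on the chromosome that its locus ID gives.

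Roots came from indica rice seedlings at about 30 days, raised in nutrient solution with 16 h of light and 8 h of dark. They were 2 lines with related names that begin with IRGA, of which the labels call 1 cold-tolerant and the other cold-sensitive. Plants of either line stayed at 28 °C or went to 10 °C, which makes 4 groups of 2 poly-A RNA libraries, with 4 plants pooled per library. Light in the treatment chamber was 100 µmol per square metre and second. Time in the cold is stated as 24 h in the extraction protocol and as up to 10 days in the titles of the cold samples, and no hour of harvest is stated. Nothing in the labels beyond the word "biological" says how replicates were separated, so p-values measure only the spread between these libraries.

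The plant clock is a loop of repressors that take turns through the day. LHY, a MYB transcription factor, is made around dawn and, in Arabidopsis, represses genes of the evening. The pseudo-response regulators (PRR) follow through the day in a set order and in Arabidopsis repress LHY in turn, while GI and TOC1 peak late in the day. LUX, ELF3 and ELF4 form the evening complex, a repressor active into the night. In Arabidopsis, roots run a clock that is kept in step by the shoot.

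The values are group means in normalised read counts, which are read counts divided by a size factor that corrects each library for its depth. They were calculated from the authors' mean over all 8 libraries and their log2 fold changes. No value per library and no observed standard deviation between replicates can therefore be given, only a spread read back from the authors' fit. Size factors were lower in the cold, at 0.679 to 0.991, than at 28 °C, at 1.10 to 1.25. The clock genes rested on between 47 reads (LUX in sensitive roots at 10 °C) and 86991 reads (GI in tolerant roots at 28 °C) per group. A list of 5 loci known for expression in roots was detected in all 4 groups, and 7 photosynthesis loci, which mark shoot tissue, were also detected in all 4. The summed level of the root loci went from 61377 to 5799 normalised counts in tolerant and from 44256 to 7843 in sensitive roots, with 5 and 4 of the 5 loci falling in the authors' deposited tables, where 19.7% and 21.8% of all genes fell. Summed levels of the shoot loci went from 5023 to 1485 and from 5010 to 3480 normalised counts, with 4 and 1 of the 7 falling, beside the same shares of all genes, and 1 rising in each line. The part of these shifts in the clock results was not tested, and in bulk roots fewer cells of a type and less RNA per cell cannot be told apart.

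In the cold, the morning gene LHY and the daytime genes PRR37, PRR95 and PRR59 rose in both lines, while the evening gene LUX and, by a smaller margin, GI fell. The GI calls were close to the threshold, and PRR73, the evening gene TOC1 and ELF3-1 were not called in either line. In tolerant roots 4 of the 10 genes rose and 2 fell in the authors' deposited table, by the threshold of 0.05 on the adjusted p, where 20.3% of all 26199 genes tested rose, 19.7% fell and 40.0% passed in either direction. In sensitive roots 5 of the 10 rose and 2 fell, against 22.8%, 21.8% and 44.5% of all genes. The 10 genes were chosen with earlier results of these data known, so these counts are a description and no independent support. The gene called in sensitive roots and not in tolerant ones was ELF3-2, whose responses in the lines did not pass a test of their difference. The median log2 change of the 10 genes was 0.74 in tolerant and 0.66 in sensitive roots, beside −0.08 and −0.03 for all genes tested, and their median absolute change was 1.08 and 1.14, beside 0.94 and 1.02. With no series of hours in the design, a changed daily mean and a moved daily peak cannot be told apart. No hour of harvest is stated, so it is not known whether cold and warm roots were collected at the same hour. A difference in harvest hour between them cannot be told apart from a response to cold, and its part was not tested. This limit holds for LHY, LUX and all other genes described here.

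**Figure D1:**
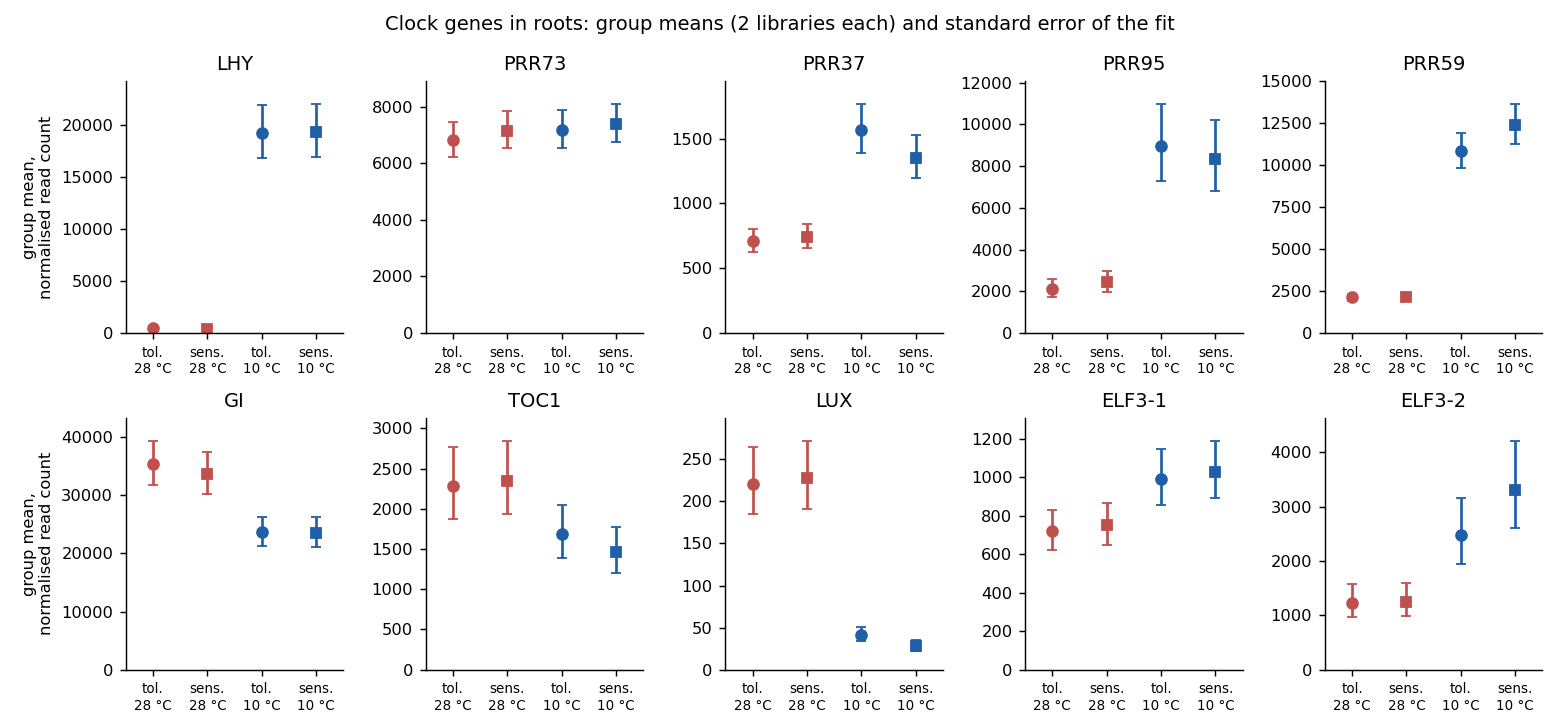
Group means of the 10 clock genes in normalised read counts (vertical axes, each from 0 and on its own scale) for tolerant (circles) and sensitive (squares) roots at 28 °C (red) and 10 °C (blue); bars are 1 standard error of each group mean, calculated from the deposited standard errors. LHY went from 517 and 433 at 28 °C to 19244 and 19328 at 10 °C, whereas LUX went from 221 and 228 to 41.6 and 28.5.

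At 28 °C LHY stood at 517 (tolerant) and 433 (sensitive) normalised counts, and at 10 °C at 19244 and 19328. Both cold groups thus lay far above both groups at 28 °C, and the lines lay close together at either temperature. The rise was 37.3-fold in tolerant roots, for which the authors' deposited table gives a log2 change of 5.22 ± 0.27 (SE; DESeq2 Wald test, adjusted p = 2.59e-78). In sensitive roots it was 44.6-fold, and the authors' deposited table gives 5.48 ± 0.27 (SE; DESeq2 Wald test, adjusted p = 8.18e-86). Ranked by the size of the deposited Wald statistic, which sets the change against its error, LHY was number 3 of 26199 genes in tolerant and number 2 in sensitive roots. By the log2 rise alone it was number 345 and number 544.

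Of the pseudo-response regulators, 3 rose in both lines and PRR73 and TOC1 were not called in either. PRR59 had the largest change, from 2126 to 10845 normalised counts in tolerant and from 2122 to 12407 in sensitive roots. The authors' deposited tables give PRR59 log2 changes of 2.35 ± 0.20 and 2.55 ± 0.20 (SE; DESeq2 Wald test, adjusted p = 1.32e-30 and 4.54e-36). By Wald statistic it ranked number 68 and number 66. PRR95, which acts at about the same time of day as PRR59, went from 2090 to 8945 and from 2427 to 8327 normalised counts. For PRR95 the authors' deposited tables give log2 changes of 2.10 ± 0.42 and 1.78 ± 0.42 (SE; DESeq2 Wald test, adjusted p = 4.86e-06 and 0.000111), with wider errors than those of PRR59.

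PRR37, also known as the heading date locus Hd2 that delays flowering under long days, rose less. It stood at 708 and 742 normalised counts at 28 °C and at 1568 and 1353 at 10 °C, in tolerant and sensitive roots. Its log2 changes in the authors' deposited tables were 1.15 ± 0.25 and 0.87 ± 0.25 (SE; DESeq2 Wald test, adjusted p = 2.41e-05 and 0.00169). Its close relative PRR73 was at 6817 and 7157 normalised counts at 28 °C and at 7180 and 7389 at 10 °C, so that its 4 group means lay within the error of one another. For PRR73 the log2 change was 0.08 in tolerant roots, with a 95% interval of −0.29 to 0.44, and 0.05 in sensitive roots, with an interval of −0.32 to 0.41. A change of PRR73 by the amount seen for PRR37 in tolerant roots lies outside both intervals.

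GI, a large plant-specific protein that in Arabidopsis stabilises clock F-box proteins by day, went from 35382 to 23628 normalised counts in tolerant and from 33579 to 23534 in sensitive roots. Both groups at 28 °C lay above both cold groups. In the authors' deposited tables the log2 changes of GI were −0.58 ± 0.22 and −0.51 ± 0.22 (SE; DESeq2 Wald test, adjusted p = 0.0221 and 0.0431). Both GI calls were close to the threshold. They ended when changes were centred on the median gene (adjusted p = 0.0536 and 0.0555 by the Wald test with the deposited DESeq2 errors, within ranges of 0.0175 to 0.0536 and 0.0352 to 0.0589 over all alternatives), and in sensitive roots also when all genes with a p-value were adjusted together (0.0589).

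TOC1, the evening pseudo-response regulator, was at 2279 and 2344 normalised counts at 28 °C and at 1681 and 1457 at 10 °C, in tolerant and sensitive roots. With log2 changes of −0.44 ± 0.40 and −0.69 ± 0.40 (SE), TOC1 did not pass in the authors' deposited tables (DESeq2 Wald test, adjusted p = 0.395 and 0.152). The 95% intervals ran from −1.22 to 0.34 and from −1.46 to 0.09, and so hold both 0 and the falls seen for GI.

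Of the evening complex, LUX fell, whereas the ELF3 genes did not. LUX, the DNA-binding subunit, stood at 221 (tolerant) and 228 (sensitive) normalised counts at 28 °C, and at 41.6 and 28.5 at 10 °C. Reads behind these cold values numbered 75 and 47 per group, against 544 and 532 at 28 °C. The falls were 5.31-fold and 8.00-fold, and the authors' deposited tables give −2.41 ± 0.40 and −3.00 ± 0.42 on the log2 scale (SE; DESeq2 Wald test, adjusted p = 1.84e-08 and 1.39e-11).

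ELF3-1, known as the heading date gene Hd17, is 1 of a pair of rice genes for the scaffold protein of the complex. It was at 718 and 750 normalised counts at 28 °C and at 991 and 1029 at 10 °C, and its log2 change of 0.46 ± 0.30 (SE) in each line did not pass in the authors' deposited tables (DESeq2 Wald test, adjusted p = 0.207 and 0.208). ELF3-2, the other of the pair, stood in sensitive roots at 1248 normalised counts at 28 °C and at 3315 at 10 °C, where the authors' deposited table gives a log2 change of 1.41 ± 0.49 (SE; DESeq2 Wald test, adjusted p = 0.0119). In tolerant roots it was at 1233 and 2482 normalised counts, and the 1.01 ± 0.49 (SE) that the authors' deposited table gives did not pass (DESeq2 Wald test, adjusted p = 0.0881). The difference between these ELF3-2 responses was −0.40 ± 0.69 (SE) on the log2 scale and did not pass either (derived Wald test on DESeq2 values, adjusted p = 0.983).

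**Figure D2:**
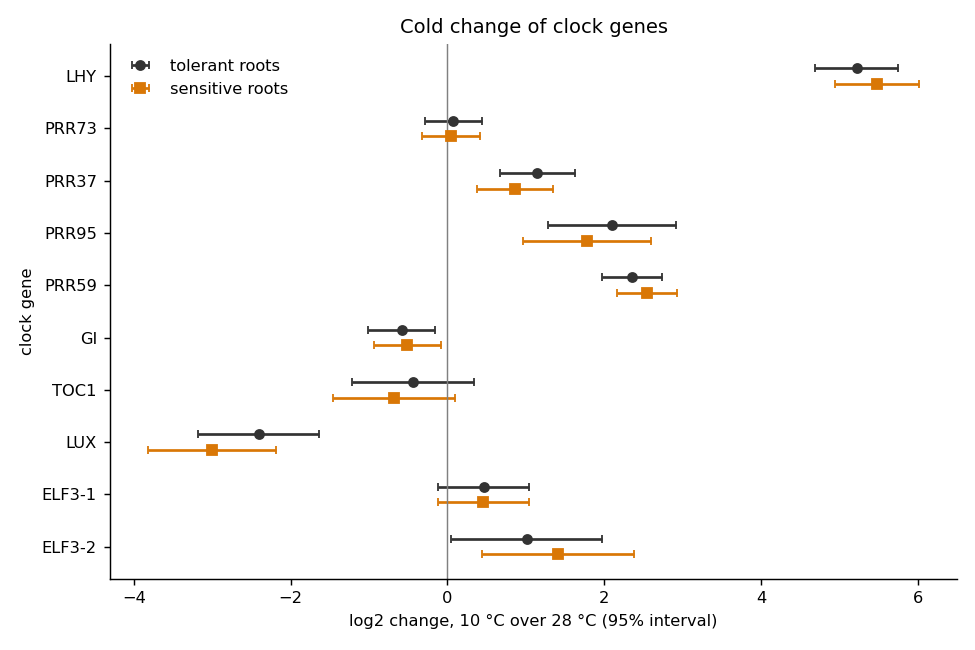
Log2 change from 28 °C to 10 °C (horizontal axis) of each clock gene in tolerant (black circles) and sensitive (orange squares) roots; bars are 95% intervals from the deposited standard errors. LHY stands at 5.22 and 5.48, PRR59 at 2.35 and 2.55, and LUX at −2.41 and −3.00, while the intervals of PRR73, TOC1 and ELF3-1 include 0 in both lines.

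All 10 clock genes had the same sign of cold change in both lines, as had 83.5% of all genes tested. The 6 of 10 called in both moved the same way, beside 31.9% of all genes, and of all genes called in both 99.9% moved the same way. These comparisons share no library, but they rest on the same dispersion estimate for each clock gene. The tolerant response minus the sensitive response ran from −0.40 (ELF3-2) to 0.59 (LUX) on the log2 scale, with a median absolute difference of 0.25, beside 0.47 for all genes. Of the 10 genes 0 passed the derived Wald test on the deposited DESeq2 values, and 0 had an unadjusted p below 0.05, where 0.622% of 26199 genes passed. For LHY the difference was −0.26 ± 0.38 (SE), with a 95% interval of −1.01 to 0.49. For PRR59 it was −0.20 ± 0.28 (SE), with an interval of −0.74 to 0.35. For LUX it was 0.59 ± 0.57 (SE), with an interval of −0.54 to 1.72. For 5 of the 10 genes, PRR73, PRR37, PRR59, GI and ELF3-1, both bounds lay within 1 log2 unit of 0.

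**Figure D3:**
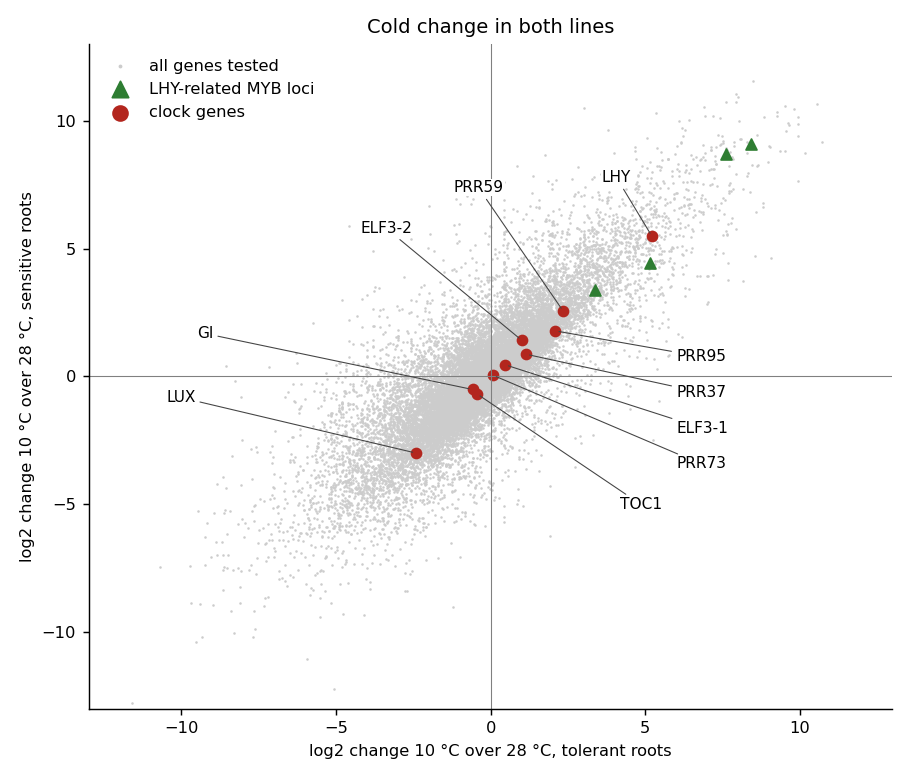
Log2 change from 28 °C to 10 °C in tolerant roots (horizontal axis) against sensitive roots (vertical axis), for all 26199 genes tested (grey), the 10 clock genes (red circles) and 4 LHY-related MYB loci (green triangles). LHY and the MYB loci lie far to the upper right, and each clock gene has the same sign in both lines.

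At a given temperature no clock gene was called different between the lines. At 28 °C the log2 difference, tolerant over sensitive, ran from −0.22 (PRR95) to 0.25 (LHY), with a median absolute difference of 0.07, beside 0.22 for all genes. None of the 10 passed in the authors' deposited table from DESeq2, and 0 had an unadjusted p below 0.05, where 0.765% of 27576 genes passed. The 95% interval for LHY at 28 °C was −0.29 to 0.79, and for ELF3-2, the widest, −0.98 to 0.95. At 10 °C the differences ran from −0.42 (ELF3-2) to 0.55 (LUX), with a median absolute difference of 0.15, beside 0.35 for all genes. Again 0 of the 10 passed in the authors' deposited table from DESeq2 and 0 had an unadjusted p below 0.05, where 2.90% of 23446 genes passed. LHY differed by −0.01 at 10 °C, with an interval of −0.53 to 0.52, and GI by 0.01, with an interval of −0.42 to 0.43. Intervals at 10 °C were wider for LUX, from −0.32 to 1.42, and for ELF3-2, from −1.38 to 0.55. Both hold differences above 1 log2 unit. The all-gene medians here and for the responses were not matched to the clock genes in mean level. In the order of the 4 group means, neighbours from the same temperature therefore did not differ beyond their error for any clock gene. Neighbours from different temperatures and lines were not compared.

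**Figure D4:**
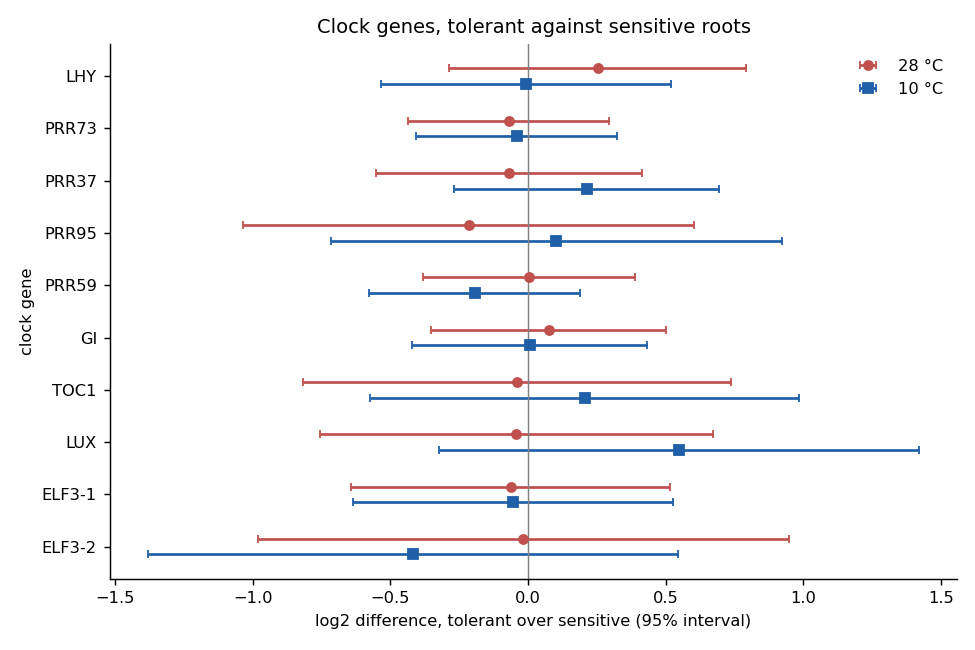
Log2 difference between tolerant and sensitive roots (horizontal axis) of each clock gene at 28 °C (red circles) and 10 °C (blue squares); bars are 95% intervals from the deposited standard errors. All 20 intervals include 0, and the widest belong to ELF3-2, from −0.98 to 0.95 at 28 °C and from −1.38 to 0.55 at 10 °C.

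Replicate libraries differed more for some clock genes than for others. The spread between libraries was read back from the deposited standard errors as a coefficient of variation (CV), the standard deviation over the mean beyond counting error, which the fit takes as the same in all groups. It was lowest for PRR73 at 12.9%, PRR59 at 13.5%, GI at 15.1% and PRR37 at 16.8%. It was highest for ELF3-2 at 34.0%, PRR95 at 28.9% and TOC1 at 27.4%. LHY was at 18.6%, ELF3-1 at 20.3% and LUX at 24.5%. DESeq2 draws such values towards those of other genes of like mean. LHY, with the largest change, had a CV larger than that of 42.7% of 520 genes whose mean lay within 2-fold of its own. Set among genes chosen in that way, ELF3-2 had a larger CV than 92.5% of 4047 genes, TOC1 than 85.0% of 4260 and PRR95 than 84.3% of 1308. PRR73 had a larger CV than 6.60% of 864 such genes and PRR59 than 9.67% of 931. The genes not called in either line thus include PRR73, with a narrow error, and TOC1, with a wide one.

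**Figure D5:**
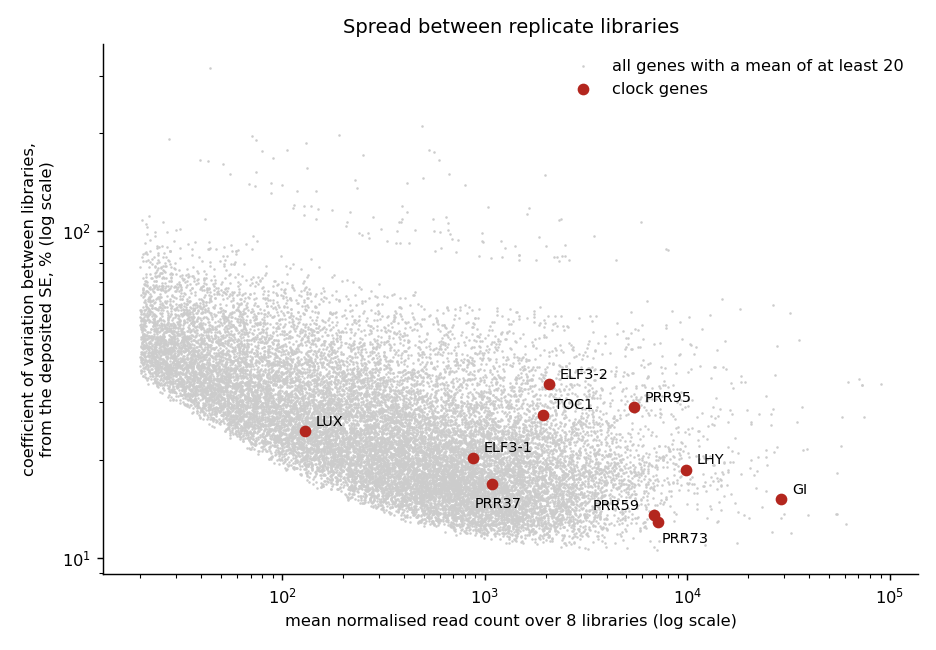
Coefficient of variation between libraries in percent (vertical log axis), read back from the deposited standard errors, against the mean normalised read count over 8 libraries (horizontal log axis), for 20132 genes with a mean of at least 20 (grey) and the 10 clock genes (red). ELF3-2, PRR95 and TOC1 lie above most genes of like mean, at 34.0%, 28.9% and 27.4%, and PRR73 and PRR59 near the lower edge, at 12.9% and 13.5%.

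Around this core lie genes of the wider clock, which were taken as lists of loci written from general knowledge of rice. No source used here gives these IDs a name. The lists were chosen with earlier results of these data known, so their counts are a description and no independent support. All 4 loci of a list of MYB factors related to LHY, a family that in Arabidopsis includes the REVEILLE activators, rose in both lines and 0 fell, where 20.3% of all genes rose in tolerant and 22.8% in sensitive roots. Their median log2 change was 6.38 in tolerant and 6.55 in sensitive roots. LOC_Os02g46030 went from 4.10 to 1410 normalised counts in tolerant and from 3.80 to 2051 in sensitive roots, the values at 28 °C resting on 10 and 9 reads per group. The authors' deposited tables give it log2 changes of 8.43 ± 0.75 and 9.08 ± 0.76 (SE; DESeq2 Wald test, adjusted p = 3.20e-27 and 3.28e-30). LOC_Os04g49450 went from 26.1 to 5106 and from 14.1 to 5765 normalised counts, and LOC_Os06g51260 from 47.3 to 1682 and from 80.1 to 1727. The fourth, LOC_Os06g01670, went from 181 to 1881 and from 192 to 1988 normalised counts. By log2 rise, LOC_Os02g46030 was number 31 of 26199 genes in tolerant and number 45 in sensitive roots. As for LHY, 0 of these 4 loci passed the derived Wald test on DESeq2 values for a difference between the responses of the lines, with 0 at an unadjusted p below 0.05.

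Of 3 loci for clock F-box proteins, which in Arabidopsis direct the breakdown of TOC1 and other proteins, 2 rose in tolerant roots and 1 in sensitive roots, beside 20.3% and 22.8% of all genes. LOC_Os06g47890 went from 1817 to 4223 and from 1999 to 3722 normalised counts, and its log2 changes in the authors' deposited tables were 1.22 ± 0.20 and 0.90 ± 0.20 (SE; DESeq2 Wald test, adjusted p = 1.10e-08 and 3.20e-05). A locus singled out after its values were seen, LOC_Os11g34460, was at 1605 and 1808 normalised counts at 28 °C and at 675 and 760 at 10 °C. Its log2 change of −1.25 ± 1.20 (SE) in either line did not pass in the authors' deposited tables (DESeq2 Wald test, adjusted p = 0.426 and 0.413). The CV of LOC_Os11g34460 between libraries was 83.2%, larger than that of 99.5% of 5667 genes of like mean. Of 4 loci of the ELF4 type, the small partner of ELF3 in the evening complex, 3 were tested. In tolerant roots 0 of these were called by DESeq2 in the authors' deposited table, with 1 at an unadjusted p below 0.05, and in sensitive roots 1 rose and 1 fell; over all genes 40.0% and 44.5% were called.

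Photoreceptors set the clock by light, and 6 loci for phytochromes and cryptochromes were followed. In each line 1 rose, 1 fell and 4 did not pass in the authors' deposited tables, a share called no higher than the 40.0% and 44.5% of all genes, with a median log2 change of 0.11 in tolerant and 0.06 in sensitive roots. LOC_Os04g37920 went from 311 to 147 and from 357 to 154 normalised counts, and LOC_Os02g41550 from 1530 to 2546 and from 1613 to 2476. Of 12 loci of photoperiodic flowering, the best known output of the rice clock, 8 were tested, 2 had a mean of 0, and the other 2 had means too low for the authors' filter. In each line 1 rose and 1 fell, again a share below that of all genes. LOC_Os03g07360 was at 626 and 595 normalised counts at 28 °C and at 2977 and 3014 at 10 °C, and the authors' deposited tables give rises of 2.25 ± 0.35 and 2.34 ± 0.35 (SE) on the log2 scale. LOC_Os10g28330 fell from 22.8 to 1.61 normalised counts, or 3 reads, in tolerant roots and from 21.2 to 3.04, or 5 reads, in sensitive roots. The authors' deposited tables give it log2 changes of −3.82 ± 1.17 and −2.80 ± 1.045 (SE; DESeq2 Wald test, adjusted p = 0.00432 and 0.0192). Taken from the rounded 3 reads, the ratio in tolerant roots was 13.7, with an exact 95% Poisson counting interval of 4.70 to 66.7. Over these lists together 10 of 24 tested loci were called in tolerant (41.7%) and 11 in sensitive roots (45.8%), close to the 40.0% and 44.5% of all genes. Among the 24 loci 0 passed the derived Wald test on DESeq2 values for a difference between responses, with 0 at an unadjusted p below 0.05.

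Genes within a fixed distance of the pattern were few for LHY and many for GI and TOC1. Likeness was measured as the distance between log2 levels over the 4 groups after centring each gene, among 15028 other genes with a mean of at least 100 normalised counts, and is a description over 4 group means. Nearest to LHY was LOC_Os01g41810, at a distance of 0.066, with 51.8 and 42.2 normalised counts at 28 °C and 1963 and 1861 at 10 °C in tolerant and sensitive roots. Then came LOC_Os03g59770 at 0.070 and LOC_Os03g07960 at 0.152, and 17 genes lay within 0.5. At 28 °C LOC_Os03g59770 had only 6.56 and 5.54 normalised counts in tolerant and sensitive roots, and LOC_Os03g07960 15.8 and 13.6. Like LOC_Os01g41810, both reached the mean of 100 only through their levels at 10 °C. The distances of LOC_Os03g59770 and LOC_Os03g07960 also rest on low counts at 28 °C. How many of the 17 genes passed that filter only through the cold groups was not counted. GI and TOC1 had 2961 and 3065 genes within that distance. As the distance is not scaled to the size of the change, these counts depend on how far each gene moved. Nearest to GI were LOC_Os05g08410 at 0.029, LOC_Os05g43330 at 0.030 and LOC_Os08g32620 at 0.034, and nearest to TOC1 were LOC_Os01g45390 at 0.026, LOC_Os01g45020 at 0.032 and LOC_Os03g51880 at 0.039.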

How the data were processed

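Root RNA of 8 libraries was read as single ends of 50 bp, per the labels' protocols. The data are the authors' 4 deposited comparison tables, in the column layout of DESeq2 per the file headers. The mean signal per gene is the authors' mean of counts divided by size factors over all libraries. The log2 fold changes and standard errors are as deposited, the score is the authors' Wald statistic, and p-values, raw and adjusted, are the deposited ones. Bowtie 0.12.7 is named in the submitters' processing notes, whereas the names of the 4 deposited tables contain STAR. Whether Bowtie gave the counts behind them is therefore not settled here. Genome build, annotation and read counter: not given in the sources used here.

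From these, group levels, size factors (from genes with 1 read in 1 library) and the dispersion behind each standard error were calculated; the 4 tables gave each clock gene the same dispersion to within 0.000267 of its value. Where sums of reads are given, they are level times summed size factors. Counting intervals cover counting error only. The difference between responses was tested by a Wald test with summed squared errors, a 2-sided normal p and Benjamini-Hochberg adjustment over 26199 genes. The calculation was run on simulated data that took the deposited errors as true, so it cannot show whether those errors are right. Intervals are the value ± 1.96 SE. Calls used an adjusted p below 0.05. All 10 clock genes were named; of other lists, at most 3 loci called in both lines, plus any said to be singled out and a list's remaining members; for LHY, GI and TOC1, the 3 nearest genes. The genes and lists were chosen with earlier results of these data known. Alternatives were a threshold of 0.01, a log2 change of at least 1, adjustment over all genes or over those above the median mean, and centring on the median gene. Python 3.11.15, scipy 1.17.1 and pandas 2.3.3 were used.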

Additional observations from a re-analysis of the deposited data

Results flagged for a closer look

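The shoot marker locus LOC_Os01g41710 responded differently to cold in the lines by the derived Wald test on DESeq2 values: the tolerant minus the sensitive log2 change was −2.75 ± 0.64 (SE; adjusted p = 0.00942), with levels of 747 and 84.0 normalised counts at 28 °C and 10 °C in tolerant roots and of 485 and 366 in sensitive roots. Over all 7 shoot loci this difference ran from −2.75 to −0.40 on the log2 scale, with a median of −1.25, beside 0.03 for all genes. Of the 7 loci 1 passed. At 10 °C all 7 were lower in tolerant than in sensitive roots, by log2 differences of −2.12 to −0.78, and 1 passed in the authors' deposited table. LOC_Os01g41710 is no clock gene, and its part in the clock results was not tested.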

How the results depend on the processing

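The number of clock genes called in the cold was 5 to 6 over the alternatives in tolerant roots and 5 to 7 in sensitive roots, and 0 for each comparison of the lines and for the difference between responses. Over the 24 tested loci of the wider clock lists it was 8 to 11 in either line. The GI call ended at an adjusted p below 0.01, at a log2 change of at least 1 and with centring in both lines, and with adjustment over all genes in sensitive roots; the PRR37 call in sensitive roots ended at a log2 change of at least 1 and the ELF3-2 call at an adjusted p below 0.01. With centring, the difference of ELF3-2 at 28 °C turned from −0.02 to 0.012 on the log2 scale, and did not pass either way. The other 230 values for single clock genes kept their direction and their side of the threshold. No paired analysis was possible because the deposited tables hold no values per library, and for the same reason no library was left out in turn. Depth limits LUX, LOC_Os02g46030, LOC_Os04g49450, LOC_Os10g28330, LOC_Os03g59770 and LOC_Os03g07960, with few reads in a group.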
